A study of Arabidopsis thaliana with 6 samples.

Results

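Sucrose synthesis and the loading of sugars into the vacuole were followed through 4 genes: SPS4F (AT4G10120), SPP2, TMT1 (AT1G20840) and TMT2 (AT4G35300). They are 4 of the 13467 genes that had a named probe set on the arrays. The genes were chosen from among sugar metabolism genes with the differences between the genotypes on these arrays already known, so these differences are given below as a description, without a test. SPS4F and TMT1 were also among the probe sets that the study itself selected on the same arrays, whereas the other two were not. The name SPP2 is used for different loci. Here it stands for AT2G35840, a locus without a symbol in the tables used, which general knowledge places in the sucrose-phosphatase family. The RefSeq gene table gives the symbol SPP2 to AT3G52340 instead, which was not analysed here because none of the probe sets used was named for it. By that reading, only 3 of the 4 genes were measured.

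Transcripts were measured on 6 Affymetrix ATH1 arrays, 3 of the wild type Ws (the Wassilewskija accession) and 3 of bzip63-2, a T-DNA insertion mutant of the transcription factor gene bZIP63 in the same background (line FLAG_610A08, called H3-2 in the labels). The mutant is a single insertion line, and no second allele was on the arrays. Each array was hybridised with RNA from the 4 youngest leaves of 5 pooled plants. The plants were 25 d old, had grown in soil in short days (10 h light, 14 h dark) at 22 °C, and their leaves were sampled when the night ended, with the lights still off. The study's methods state that the shoot apical meristem was taken along with these leaves, while the sample labels name the leaves alone. The labels call the 3 pools of a genotype biological replicates without saying whether they were grown separately, so errors and p-values measure the spread between these pools.

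Leaves form sucrose in the cytosol. Sucrose phosphate synthase joins UDP-glucose and fructose phosphate to sucrose phosphate, and sucrose-phosphate phosphatase then removes the phosphate in an essentially irreversible step. At night the carbon for this reaction comes from starch, which leaves the chloroplast mainly as maltose and glucose. The tonoplast monosaccharide transporters, TMT1 and its close relative TMT2, are carriers of the vacuolar membrane that bring glucose and other sugars into the vacuole in exchange for protons. The proton pumps of the same membrane provide the gradient for this exchange. Sequences of these genes and probes are not shown, because the reference tables used hold names only.

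Values are log2 values made by the authors with RMA, a method that summarises the probes of a probe set into 1 value per array. All 6 arrays had the same lowest value of 2.47, here called the floor, and each array had 39.4% to 42.2% of its probe sets no more than 0.05 above this value. Array medians were 2.61 to 2.62, and correlations between arrays were 0.990 to 0.996. The probe set of bZIP63 (AT5G28770) had a mean of 5.58 in Ws and 8.66 in bzip63-2. The T-DNA mutant was thus the group with the higher value of the targeted gene. The position of the probes relative to the T-DNA was not analysed, and each direction given below rests on the labels. Of the markers of leaf, meristem, phloem, root, seed and flower, 3 had a named probe set. RCA, the leaf marker that encodes Rubisco activase, lay between 11.52 and 11.82. CLV3, the only one of the 4 markers of the shoot apical meristem with a probe set, lay at the floor on all 6 arrays. PYK10, a beta-glucosidase gene and the only one of the 3 root markers with a probe set, was at 3.24 to 3.84 in Ws and at 4.53 to 4.95 in bzip63-2, with a log2 difference of 1.21 (standard error 0.22). Its part in the results below was not tested. In leaf pools such as these, fewer cells of a type and less RNA per cell cannot be told apart.

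SPS4F encodes a sucrose phosphate synthase isoform expressed in leaves. Its values were 2.83, 2.86 and 2.76 in Ws and 3.08, 3.48 and 3.17 in bzip63-2. The mutant arrays all lay above the Ws arrays, with a gap of 0.22 between the highest Ws array and the lowest mutant array. The Ws arrays were close together, whereas replicate 2 of bzip63-2 stood clear of the other mutant arrays. The means were 2.81 ± 0.05 in Ws (SD, n = 3 arrays) and 3.24 ± 0.21 in bzip63-2 (SD, n = 3), a log2 difference of 0.43 (standard error 0.13) or 1.35-fold. Without replicate 2 of bzip63-2 the log2 difference was 0.31. In Ws, the mean of SPS4F was only 0.34 above the floor.

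The locus AT2G35840, read here as SPP2, is the member of the phosphatase step. It had values of 4.08, 3.94 and 4.05 in Ws and 4.32, 4.22 and 4.41 in bzip63-2. All mutant arrays were above all Ws arrays, although the gap between them was only 0.14. The means were 4.03 ± 0.07 in Ws (SD, n = 3 arrays) and 4.32 ± 0.09 in bzip63-2 (SD, n = 3), which is a log2 difference of 0.29 (standard error 0.07) or 1.22-fold. This was a smaller difference than that of SPS4F, with less spread in the mutant.

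TMT1 had the largest difference of the 4 genes. Its values were 3.62, 3.44 and 3.16 in Ws and 4.01, 4.02 and 3.89 in bzip63-2. The mutant arrays lay within a narrow range above the widely spread Ws arrays, and the gap between the genotypes was 0.28. The means were 3.41 ± 0.23 in Ws (SD, n = 3 arrays) and 3.98 ± 0.07 in bzip63-2 (SD, n = 3). The log2 difference was 0.57 (standard error 0.14), or 1.49-fold, and it ranged from 0.28 to 0.86 over the 9 pairs of a mutant and a Ws array.

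TMT2 did not separate the genotypes. Its values were 3.23, 2.91 and 2.79 in Ws and 3.17, 3.06 and 3.06 in bzip63-2, so that the mutant arrays fell within the range of the Ws arrays. The means were 2.98 ± 0.23 in Ws (SD, n = 3 arrays) and 3.10 ± 0.06 in bzip63-2 (SD, n = 3), and the log2 difference of 0.12 was smaller than its standard error of 0.14. Over the 9 pairs of arrays the difference ranged from -0.17 to 0.38, and 6 of the pairs were positive. The value depended on the Ws arrays, since it was 0.25 without replicate 1 of Ws and 0.03 without replicate 3. The probe set was dim, with a mean 0.51 above the floor in Ws and 0.63 in bzip63-2.

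**Figure D1:**
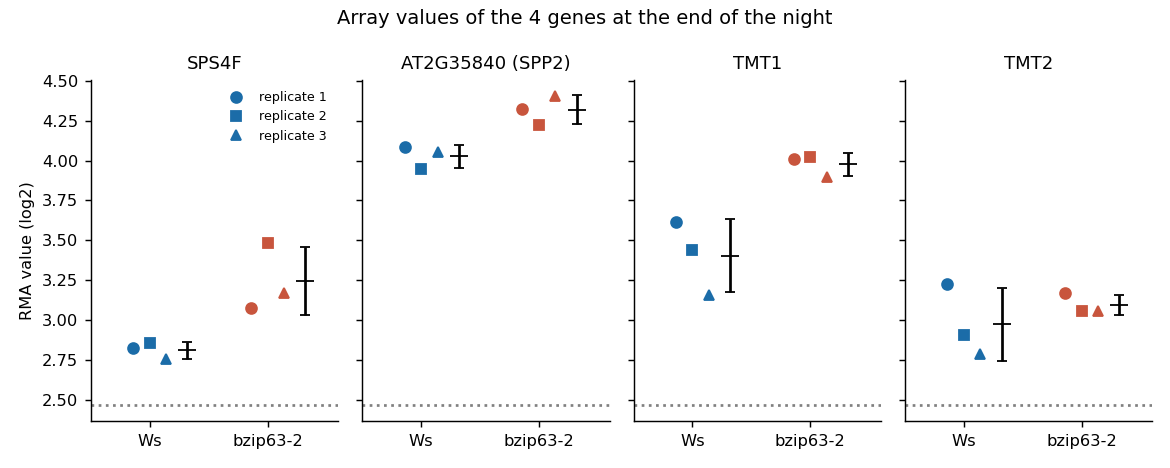
RMA values (log2, vertical axis) of SPS4F, AT2G35840 (SPP2), TMT1 and TMT2 on each of the 3 Ws arrays (blue) and 3 bzip63-2 arrays (red). Symbols mark the replicate number, black bars the mean and SD, and the dotted line the floor of 2.47; the genotypes do not overlap for SPS4F, AT2G35840 and TMT1 and overlap for TMT2.

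For 3 of the 4 genes, therefore, the bzip63-2 arrays did not overlap with the Ws arrays and were higher. Over all 22746 probe sets tested, 6.81% were higher in the mutant without overlap. The 4 genes were chosen with this contrast known, and nothing is read from their count. For any such gene, the smallest two-sided p that exact permutation of 3 and 3 arrays allows is 0.10. The separation of the 3 genes and the overlap of TMT2 were also found when quantile normalization was repeated and when the arrays were centred on the median of brighter probe sets. The log2 difference of TMT1 was then 0.52 and 0.54, that of SPS4F 0.40 and 0.40, that of AT2G35840 0.24 and 0.26, and that of TMT2 0.08 and 0.09.

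The TMT1 and TMT2 probe sets were further compared within each array, because a shift common to both on an array then drops out. The log2 value of TMT1 minus that of TMT2 was 0.38, 0.53 and 0.37 in Ws and 0.84, 0.96 and 0.84 in bzip63-2. All mutant arrays were above all Ws arrays, and both sets were tight. The mean was 0.43 ± 0.09 in Ws (SD, n = 3 arrays) and 0.88 ± 0.07 in bzip63-2 (SD, n = 3), a change of 0.45 (standard error 0.07). The standard error of this change was smaller than those of TMT1 and TMT2 alone, which were both 0.14. This change is built from the differences known when the genes were chosen, and with TMT2 close to the floor it is given as a description only. It does not give the relative abundance of the transcripts, since different probe sets are not comparable in level. Quantile normalization repeated gave a change of 0.44, again without overlap. For the other pairs among the 4 genes, the differences within an array overlapped between the genotypes.

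**Figure D2:**
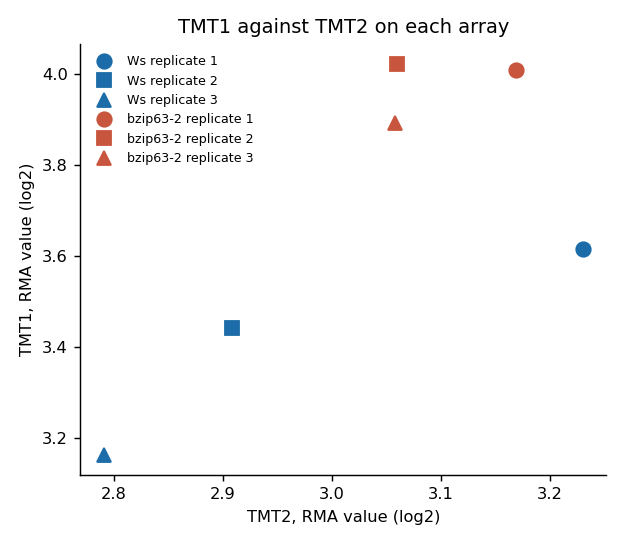
RMA value of TMT1 (log2, vertical axis) against that of TMT2 (log2, horizontal axis) on each array, with Ws in blue and bzip63-2 in red and symbols for the replicate number. Along both axes the Ws arrays are spread out, and the mutant arrays lie above them in TMT1 at TMT2 values within the Ws range.

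The arrays of a genotype also differed among themselves. TMT1 and TMT2 were both highest in replicate 1 of Ws, by 0.21 and 0.25 on the log2 scale above their Ws means, and both lowest in replicate 3, at -0.24 and -0.18 relative to these means. Their deviations from the genotype means had a Pearson r of 0.88 over the 6 arrays. Of 1964 other genes with a mean above 4, 3.31% had deviations at least that similar to those of TMT1. TMT1 and TMT2 were dimmer than these genes, with means of 3.69 and 3.04, so this share is not a matched background. SPS1F (AT5G20280), another sucrose phosphate synthase gene, had the opposite order. It was lowest in replicate 1 of Ws, at -0.28 relative to its mean, and highest in replicate 3, by 0.27, and its deviations had an r of -0.86 with those of TMT1 and -0.90 with those of TMT2. SPS4F and AT2G35840 deviated little among the Ws arrays, with an SD of 0.05 and 0.07. These values share the same arrays and few of them, and are given as a description. The larger spread in Ws held beyond these genes. Among the 4126 probe sets with a mean above 4 the median SD was 0.13 in Ws and 0.09 in bzip63-2, and 65.8% of them had the larger SD in Ws. SPS4F and AT2G35840, in contrast, each had the larger SD in the mutant.

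**Figure D3:**
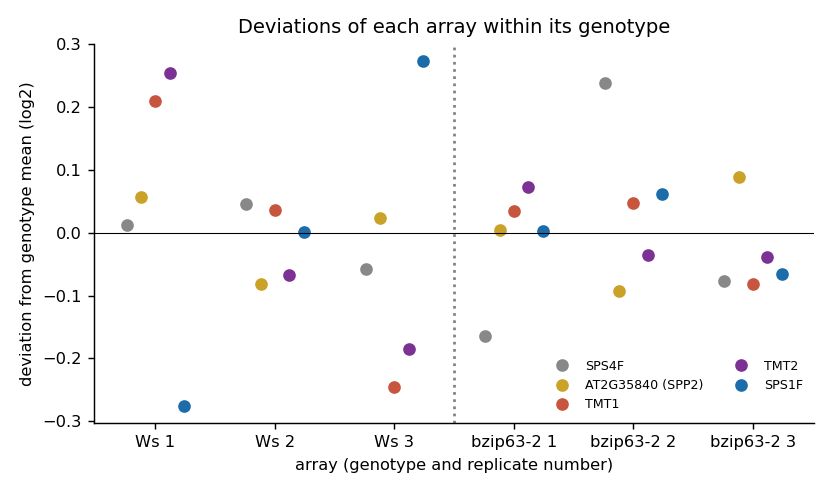
Deviation of each array from the mean of its genotype (log2, vertical axis) for SPS4F, AT2G35840 (SPP2), TMT1, TMT2 and SPS1F, by array (horizontal axis). In Ws replicate 1, TMT1 and TMT2 lie above and SPS1F below 0, and in Ws replicate 3 the order is turned; in the mutant, SPS4F in replicate 2 has the largest deviation, 0.24.

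Genes whose pattern over the 6 arrays was most like that of each of the 4 were sought by Pearson r among genes with a mean above 4. This r follows both the difference between the genotypes and the deviations within them. SPS4F was most similar to the metallothionein gene MT1C (r = 0.99), scpl29 (r = 0.97) and AT4G32020 (r = 0.97). MT1C had values of 5.25, 5.36 and 5.21 in Ws and 6.08, 6.90 and 5.98 in bzip63-2, and like SPS4F it was highest in replicate 2 of the mutant. MT1C and AT4G32020 were also selected by the study on these arrays. AT2G35840 was most similar to AT5G38980 (r = 0.98), AT5G63190 (r = 0.97) and AT5G47890 (r = 0.97). TMT1 was most similar to AT1G53290 (r = 0.98), AT3G56340 (r = 0.97) and SDH2-2 (r = 0.97), which encodes an iron-sulfur subunit of mitochondrial succinate dehydrogenase. The log2 differences of these 3 genes, 0.28, 0.16 and 0.11, were smaller than that of TMT1. TMT2 was most similar to AT1G24050 (r = 0.99), MAC3A (r = 0.97) and AT2G38550 (r = 0.96), and the genotypes overlapped for all 3. An r above 0.9 was reached by 29 of 1964 genes for SPS4F, 31 for TMT1 and 14 for TMT2, and by 69 of 1963 for AT2G35840.

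Other genes of sugar synthesis, transport and storage were described with lists of 101 genes. These lists were also chosen with earlier results of these arrays known, so their counts are no independent check. Of these, 25 had a probe set named by the platform annotation, 3 were named only through the study's own selection, and 73 were not analysed here. Apart from the 4 genes described above, 21 genes could be counted. With limma and p-values adjusted by Benjamini-Hochberg across the whole array, 0 of the 21 had an adjusted p under 0.05, and of all 22746 probe sets 0% were called. At an unadjusted p under 0.05, 4 of the 21 were higher and 0 lower, against 4.33% higher and 2.04% lower among all probe sets. The same 4 genes were higher without overlap and 0 were lower without overlap, against 6.81% and 3.23%. These shares include the many probe sets near the floor. At the unadjusted threshold, 941 of 8242 probe sets with a mean above 3 were higher and 378 lower. For means above 4, 528 of 4126 were higher and 242 lower. Of the pathway genes in these 2 settings, 4 of 14 and 4 of 10 were higher and 0 lower. When quantile normalization was repeated, 2 of the 21 were higher at the unadjusted threshold, and the count was also 2 without replicate 2 of Ws, replicate 1 of bzip63-2 or replicate 3 of bzip63-2. The background depended on the scaling. Of all probe sets past the unadjusted threshold, 67.9% were higher with the deposited values, 54.4% with quantile normalization repeated (959 higher and 804 lower) and 39.8% with the arrays centred (910 higher and 1378 lower), where 4 of the 21 were higher and 0 lower. The median log2 difference of the 21 genes was 0.00, and 6 of them lay within 0.05 of the floor on all arrays.

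In the sucrose synthesis list, SPS1F was measured through a probe set that only the study's selection names, so it is described and not counted. Its values were 3.17, 3.44 and 3.72 in Ws and 4.04, 4.10 and 3.97 in bzip63-2. As for TMT1, tightly grouped mutant arrays lay above spread-out Ws arrays, with a log2 difference of 0.59 (standard error 0.16). F2KP, a bifunctional enzyme whose product restrains cytosolic sucrose synthesis, was at 6.00, 5.94 and 5.93 in Ws and at 6.08, 6.02 and 6.10 in bzip63-2. These arrays did not overlap, but the log2 difference was only 0.11 (standard error 0.03; adjusted p = 0.62 from limma). The locus AT5G42740, placed in this list as the cytosolic phosphoglucose isomerase, differed by -0.05 on the log2 scale (standard error 0.07), and AT3G54270, placed there as another sucrose-phosphatase, lay at the floor in both genotypes. The phosphatase step was thus seen through AT2G35840, the only listed phosphatase locus with a named probe set and values clear of the floor. AT3G52340 had no named probe set and was not analysed.

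Among the tonoplast carriers, TMT1 stood beside 6 others with a probe set, none of which separated the genotypes. Of the 12 carriers in this list, 5 had no named probe set and were not analysed. TMT3, the third member of the TMT family, lay at or within 0.05 of the floor on all 6 arrays, so that no fold is given. SWEET16, a fructose carrier of the vacuolar membrane, also lay within 0.05 of the floor. SWEET17, another vacuolar fructose carrier, was at 3.46, 3.46 and 3.48 in Ws and at 3.45, 3.77 and 3.46 in bzip63-2. Only replicate 2 of the mutant was raised, the same array in which SPS4F was highest. SWEET2, a vacuolar sugar carrier, had a log2 difference of -0.05 (standard error 0.12). The locus AT5G17010, placed in the list as a vacuolar glucose transporter, was at 3.30 ± 0.23 in Ws (SD, n = 3 arrays) and at 3.06 ± 0.08 in bzip63-2 (SD, n = 3), a log2 difference of -0.24 (standard error 0.14; adjusted p = 0.74 from limma). Its mutant arrays overlapped with those of Ws.

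In the other lists, 3 genes were higher in each bzip63-2 array than in any Ws array. VHA-A3, a subunit of the vacuolar proton pump, was at 4.55, 4.48 and 4.23 in Ws and at 4.65, 4.71 and 4.70 in bzip63-2, a log2 difference of 0.27 (standard error 0.10; adjusted p = 0.74 from limma). AT3G42050, placed in the same pump list, had a log2 difference of 0.18 (standard error 0.03; adjusted p = 0.33 from limma), and AT5G59250, placed in the list of plastid carbon export, one of 0.23 (standard error 0.06; adjusted p = 0.54 from limma). None of the 3 passed the adjusted threshold. A further pump locus, AT3G58730, differed by -0.05 on the log2 scale (standard error 0.08). SWEET11, a sucrose exporter of the leaf phloem, had the largest difference of the 21 genes, 0.65 (standard error 0.29; adjusted p = 0.74 from limma). Its arrays overlapped, since Ws was at 4.59, 4.35 and 5.07 and bzip63-2 at 4.98, 5.32 and 5.66. AT1G66430, placed in the list of hexose phosphorylation, had a log2 difference of -0.11 (standard error 0.10). DIN10, a dark-inducible gene of the raffinose synthase family, is named only by the study's selection and was at 9.01 ± 0.37 in Ws (SD, n = 3 arrays) and 8.33 ± 0.07 in bzip63-2 (SD, n = 3), without overlap.

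**Figure D4:**
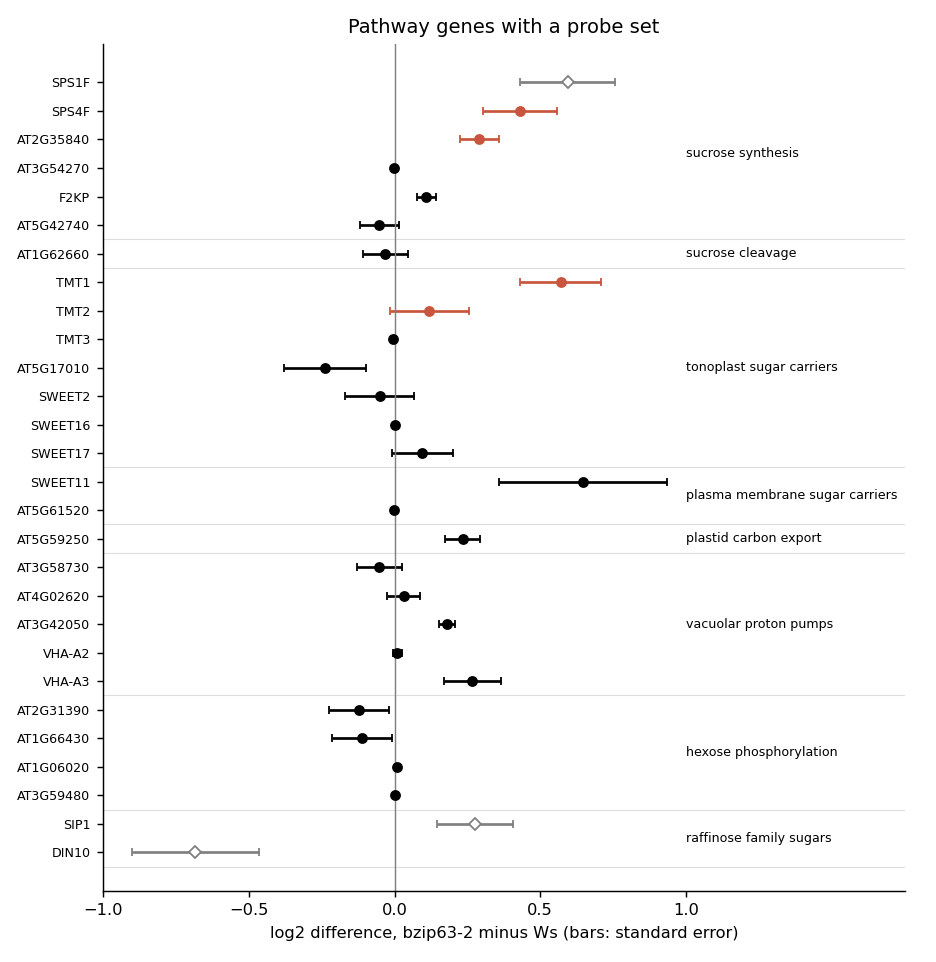
Log2 difference between bzip63-2 and Ws (horizontal axis, bars show the standard error) of the listed pathway genes with a probe set, by list. Red circles are the 4 genes described in full, black circles the 21 counted genes, and open grey diamonds the 3 genes named only by the study's selection; 6 black circles at 0 are genes that lay at the floor.

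**Figure D5:**
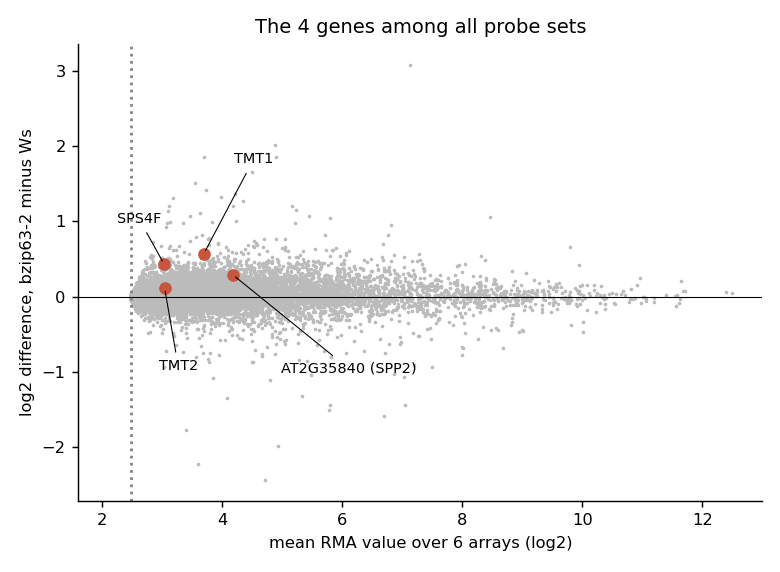
Log2 difference between bzip63-2 and Ws (vertical axis) against the mean RMA value over the 6 arrays (log2, horizontal axis) for 22746 probe sets (grey), with the 4 genes in red and the floor as a dotted line. SPS4F, TMT1 and TMT2 have means between 3.03 and 3.69, in the dim part of the range, and AT2G35840 has a mean of 4.17.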

How the data were processed

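Per the labels, the authors ran RMA in Affymetrix Expression Console, which gave the deposited log2 values; the version of neither is given in the sources used. The log2 scale was inferred from the range of the values. From these values, bzip63-2 was compared with Ws in limma 3.58.1 (lmFit and eBayes, R 4.3.3) over 22746 probe sets, with 64 control probe sets left out and no filter or block. Benjamini-Hochberg adjustment ran over all of them, and a call needed an adjusted p under 0.05. The fit was tested on simulated data, with changes placed only in probe sets with a mean above 4. Those changes were larger than the differences of the 4 genes, so the simulation does not cover differences this small. Standard errors printed with differences come from the array SDs of the 2 genotypes. The number of arrays limits the precision.

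Probe sets were named by the platform annotation through Entrez identifiers: 13513 had 1 gene, 503 several and 8730 were unlisted, and 13436 received a TAIR locus code. Others were named by the study's list of 348 selected probe sets. Each of the 4 genes had 1 probe set. The genes and lists were chosen with earlier results of these arrays known. Named genes were the 4, all measured genes of the 2 lists on sucrose synthesis and tonoplast carriers, up to 3 with a mean above 4 and the largest difference from each other list, and the 3 most similar genes each; SIP1 and others below that mean are not named. Lists covered sucrose synthesis and cleavage, tonoplast, plasma membrane and plastid carriers, vacuolar proton pumps, hexose phosphorylation, raffinose sugars and trehalose phosphate. The study's own fold changes and p-values were not used.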

Additional observations from a re-analysis of the deposited data

How the results depend on the processing

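The log2 differences of the 4 genes kept their sign under repeated quantile normalization, centring on the median of brighter probe sets and each array left out in turn. For SPS4F, AT2G35840 and TMT1, leaving an array out could not reverse the sign, since each mutant array lay above each Ws array. The differences of the 4 genes moved by less than the spread between arrays, taken as the SD pooled over the genotypes. With an array left out this had to be so. Dropping 1 of so few arrays cannot shift a genotype mean by as much as that SD, so nothing about stability is read from it. The shifts under repeated quantile normalization and centring were not limited in this way. The mean of all probe sets of a gene could not change the differences, because each gene had 1 probe set. With an array left out they ranged from 0.31 to 0.51 for SPS4F, 0.25 to 0.34 for AT2G35840, 0.45 to 0.67 for TMT1 and 0.03 to 0.25 for TMT2.

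The count of all probe sets past an adjusted p under 0.05 from limma was 0 and stayed at 0 with the trend or robust prior, array weights, or control probe sets kept. It was 3 when quantile normalization was repeated, 36 with the arrays centred, 57 without means of 3 or less and 108 without means of 4 or less. It ranged from 0 to 34 with an array left out, with 34 without replicate 3 of Ws, 5 without replicate 1 or replicate 2 of Ws and 1 without replicate 2 of bzip63-2. At an unadjusted p under 0.05 it was 1449, with 67.9% higher, against 54.4% under quantile normalization and 39.8% with the arrays centred; the cause was not tested. Of the 21 pathway genes 0 were called in any of these settings, and 4 were past the unadjusted threshold, with 2 to 4 higher and at most 1 lower when an array was left out.

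Deviations of same-numbered arrays correlated at 0.02 to 0.06 over probe sets with a mean above 4, and those of differently numbered arrays at -0.09 to 0.08. These values do not show whether same-numbered pools were grown or processed together. With the replicate block, 0 probe sets and 0 pathway genes were called. The log2 difference of TMT1 stayed at 0.57, which this block could not change because each replicate number occurs in both genotypes.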
